A study of Mus musculus with 12 samples.

Results

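Pink1 and 7 further genes that mark damaged mitochondria for removal, or restrain that marking, were followed in single muscle fibers of young and aged mice. The 8 genes (Pink1, Bnip3, Bnip3l, Fundc1, Bcl2l13, Phb2, Optn and Usp30) were chosen by symbol, all 8 were found among 55367 listed genes, and all 8 passed the limit on low expression. None of them passed the adjusted test between Fluo-4 abnormal and Fluo-4 normal fibers of aged mice (9.35% of all genes did), where the group means differed by a factor of 0.989 to 1.30. For Bnip3 the limma adjusted p there was 0.051, and 0.042 with the replicate number of the aged samples as block. Bnip3 passed in 5 of 25 alternatives. It did not pass with TMM-type scaling, which centres the bulk of genes on no change (adjusted p = 0.55). Against young fibers, Optn was 1.29-fold higher in the Fluo-4 abnormal fibers and was the 1 of 8 genes to pass (8.50% of all genes did). That call was lost with TMM-type scaling (adjusted p = 0.26) and in 5 of the 12 omissions of 1 sample. Among their partners on longer lists, the adaptors Nbr1 and Sqstm1 and the autophagosome protein Map1lc3b rose in Fluo-4 abnormal against Fluo-4 normal fibers, while Phb, the partner of Phb2, fell. With TMM-type scaling Nbr1 and Phb kept their calls and Sqstm1 (0.33, adjusted p = 0.11) and Map1lc3b (0.12, adjusted p = 0.41) did not.

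Fibers came from the extensor digitorum longus, a fast hindlimb muscle, of C57BL/6J mice, with no genetic change and no treatment given for any of the 3 groups. The young group held fibers of mice aged 3 to 4 months. The aged mice were 26 to 28 months old, and their fibers were stained with Fluo-4, a dye that fluoresces on binding calcium, and separated under a fluorescence stereomicroscope into those with usual staining (Fluo-4 normal) and those with aberrant bright staining (Fluo-4 abnormal). The study reports Fluo-4 abnormal fibers in aged male mice and hardly any in aged females. It ties their bright staining to tubular aggregate-like structures of the sarcoplasmic reticulum. Outside the bright regions it found no difference in Fluo-4 intensity from Fluo-4 normal fibers. Each group had 4 samples. How many fibers or mice a sample held is not given in the sources used here, so p-values measure only the spread between these samples. The sorting was by a dye signal and not by a gene, and fewer transcripts per fiber cannot be told apart from more of other transcripts in a relative unit.

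Levels are in TPM, a transcript share that divides the reads of a gene by its length and sets the sum of every sample to the same total, so levels may be compared between genes. Read counts were not among the files used here, the depth behind each value is therefore unknown, and no counting interval is given. Changes are differences of log2(TPM + 1) from 1 limma fit of the 3 groups over 14427 genes, and p was adjusted over all of them (Benjamini-Hochberg). A gene was called at an adjusted p under 0.05. The added 1 understates the change of genes near 1 TPM, of which Usp30 is one.

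Mitophagy is the removal of mitochondria by autophagosomes. In one route the kinase PINK1 collects on mitochondria that have lost membrane potential and starts their coating with ubiquitin chains that adaptors such as optineurin bind. In the other, receptors fixed in the mitochondrial membrane (BNIP3, NIX, FUNDC1, BCL2L13 and, on the inner membrane, PHB2) bind the LC3 and GABARAP proteins of the autophagosome directly. In skeletal muscle, BNIP3 and NIX are known as products of genes that respond to low oxygen and to fasting.

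The promoters of 3 of the genes are shown because Bnip3 had the smallest p between the aged groups, Bnip3l is its close relative, and Optn is the gene called against young fibers. Each is the 250 bases before the start of the main transcript, read from GRCm39 on the gene's own strand, 5′ to 3′. Capitals mark ACGTG or GCGTG, the core of the element bound by hypoxia-inducible factors, on either strand.
Bnip3: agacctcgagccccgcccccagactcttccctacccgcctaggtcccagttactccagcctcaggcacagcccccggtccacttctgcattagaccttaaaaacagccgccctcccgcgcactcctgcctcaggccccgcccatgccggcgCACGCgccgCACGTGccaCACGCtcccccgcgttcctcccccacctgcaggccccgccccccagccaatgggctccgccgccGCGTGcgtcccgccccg
Bnip3l: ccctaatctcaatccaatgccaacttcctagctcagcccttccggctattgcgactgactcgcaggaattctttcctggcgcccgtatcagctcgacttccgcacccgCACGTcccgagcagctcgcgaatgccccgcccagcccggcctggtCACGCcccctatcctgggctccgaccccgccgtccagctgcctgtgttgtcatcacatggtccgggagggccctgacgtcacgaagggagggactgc
Optn: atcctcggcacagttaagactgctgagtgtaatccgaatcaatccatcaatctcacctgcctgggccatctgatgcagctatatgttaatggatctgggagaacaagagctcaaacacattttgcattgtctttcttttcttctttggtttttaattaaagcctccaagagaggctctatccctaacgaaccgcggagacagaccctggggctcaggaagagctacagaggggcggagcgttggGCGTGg
The Bnip3 stretch (chr7:138511254-138511503, minus strand) held 5 matches between positions -99 and -13 counted from the start, of which 2 are the same palindrome read on both strands. Bnip3l (chr14:67246335-67246584, minus strand) held 2 matches and Optn (chr2:5068946-5069195, minus strand) 1, at positions -6 to -2. Of the other members, Bcl2l13 held 2, Pink1 and Phb2 held 1 each, and Fundc1 and Usp30 held 0. Over 21757 promoters of the same length, 41.3% held at least 1 match, 18.2% at least 2 and 1.06% at least 5. These promoters were not matched for G and C content, which was 72.4% in the Bnip3, 64.4% in the Bnip3l and 48.8% in the Optn stretch. None of the 8 stretches held the FoxO motif GTAAACA, the ERR motif TCAAGGTCA or the CLEAR motif TCACGTGA, which 2.72%, 0.432% and 0.754% of promoters held. Such matches are letters in a window and were not tied to binding in these fibers.

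The mouse genes lie on 7 chromosomes of GRCm39: Pink1 at chr4:138039346-138053618, Bnip3 at chr7:138490690-138511253, Bnip3l at chr14:67222678-67246356, Fundc1 at chrX:17386204-17438572, Bcl2l13 at chr6:120813144-120891322, Phb2 at chr6:124689299-124693913, Optn at chr2:5022703-5068945 and Usp30 at chr5:114203522-114262781. All are protein-coding, and each value below sums over the exons of the gene.

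In young fibers Pink1 had the highest level of the 8, 525 ± 27.3 TPM (SD, n = 4), above 98.7% of the genes tested. Bnip3 followed at 291 ± 14.9 TPM, then Phb2 at 106 ± 6.71, Bnip3l at 74.7 ± 8.04, Optn at 50.3 ± 7.71, Fundc1 at 24.6 ± 2.08, Bcl2l13 at 18.0 ± 2.08 and Usp30 at 1.01 ± 0.19. The order was the same in all 3 groups. Neighbours in that order did not overlap in young or in Fluo-4 normal fibers. In Fluo-4 abnormal fibers Phb2 overlapped Bnip3l, and Fundc1 overlapped Bcl2l13.

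**Figure D1:**
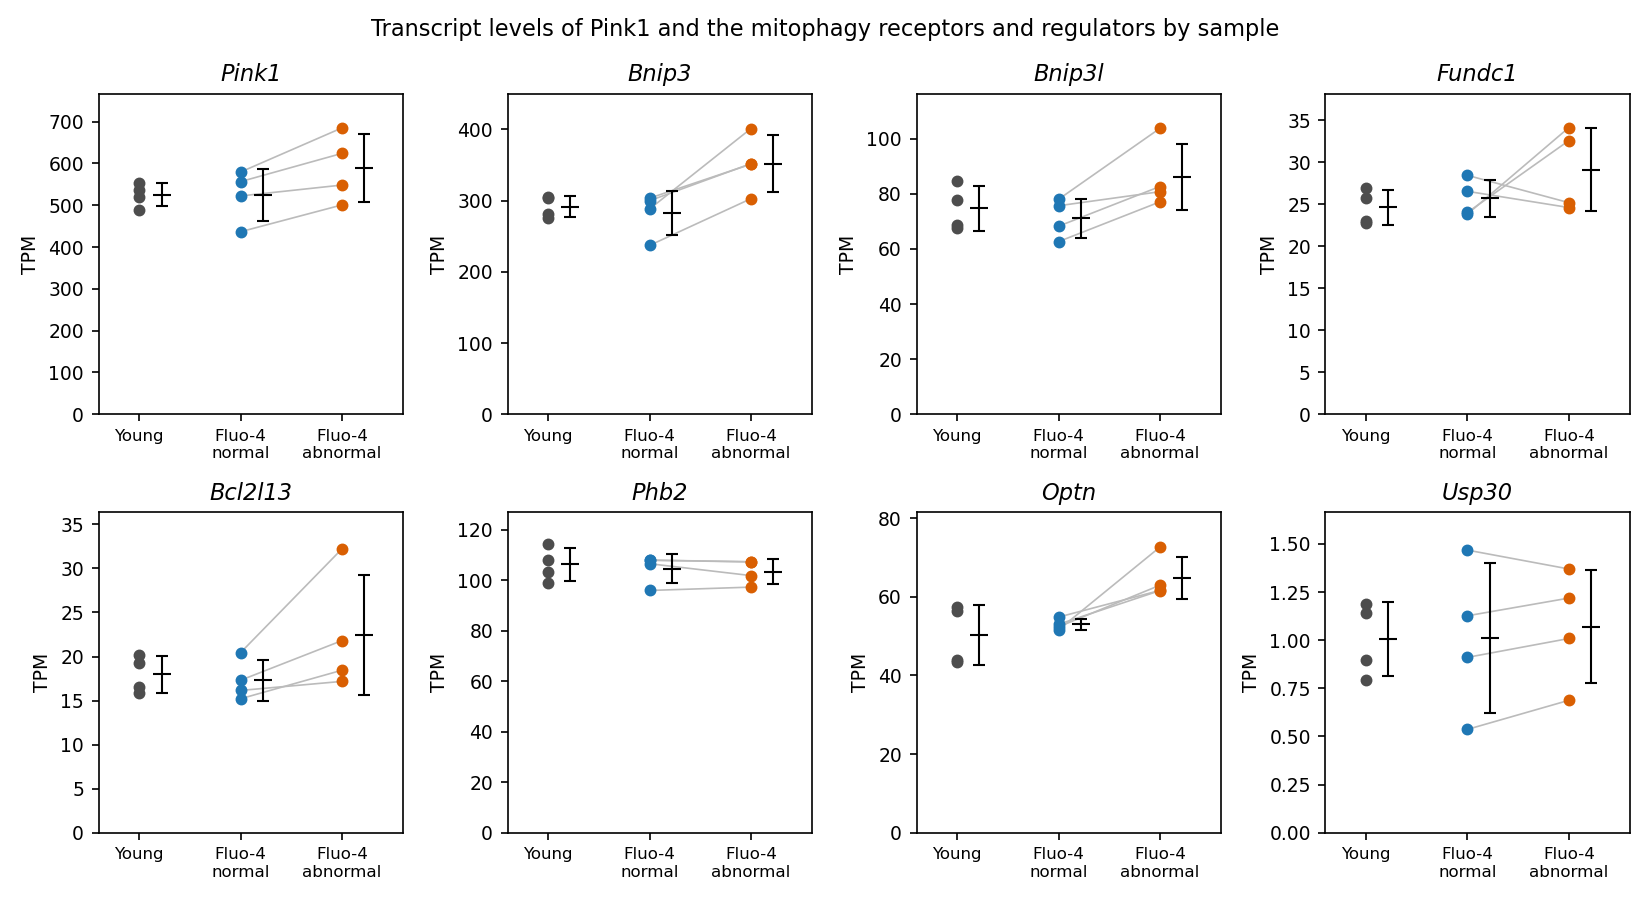
Transcript level (y axis, TPM, from 0) of the 8 genes in each sample of the 3 groups (x axis). Points are samples, grey lines join aged samples of the same number, and black bars give mean ± SD of 4 samples. Optn is the 1 gene whose Fluo-4 abnormal samples (61.6 to 72.6 TPM) all lie above both other groups.

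The comparison of Fluo-4 abnormal with Fluo-4 normal fibers asks what differs between fibers of aged mice by their Fluo-4 staining. Of the 8 genes 0 were called in the limma fit, where 9.35% of all genes tested were called and 17.7% of the 6348 genes with a group mean of at least 5 TPM. At an unadjusted p under 0.05 there were 3, Bnip3, Bnip3l and Optn, against 25.6% of all genes and 42.0% of those at 5 TPM. The log2 change was positive for 7 of 8, against 69.6% of all genes and 78.6% of those at 5 TPM. In the same-numbered aged pairs 5 of 8 genes were higher in all 4, against 27.9% of all genes and 44.7% of those at 5 TPM. The median over the 8 genes was 0.22, over all genes 0.10 and over those at 5 TPM 0.20, so a general upward shift in TPM ran through this comparison. Transcripts encoded by the mitochondrial genome, which share the fixed total, took 4.75 to 6.92% of it in Fluo-4 abnormal fibers, 8.75 to 10.9% in Fluo-4 normal and 7.35 to 8.01% in young fibers. With scaling that leaves these transcripts out, 7 of 8 changes were positive, with a median of 0.16 over the 8 genes and 0.07 over all genes. With scaling factors of the TMM type, which centre the bulk of genes on 0, 4 of 8 changes were positive and the calls over all genes went from 1062 higher and 287 lower to 309 higher and 531 lower.

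**Figure D2:**
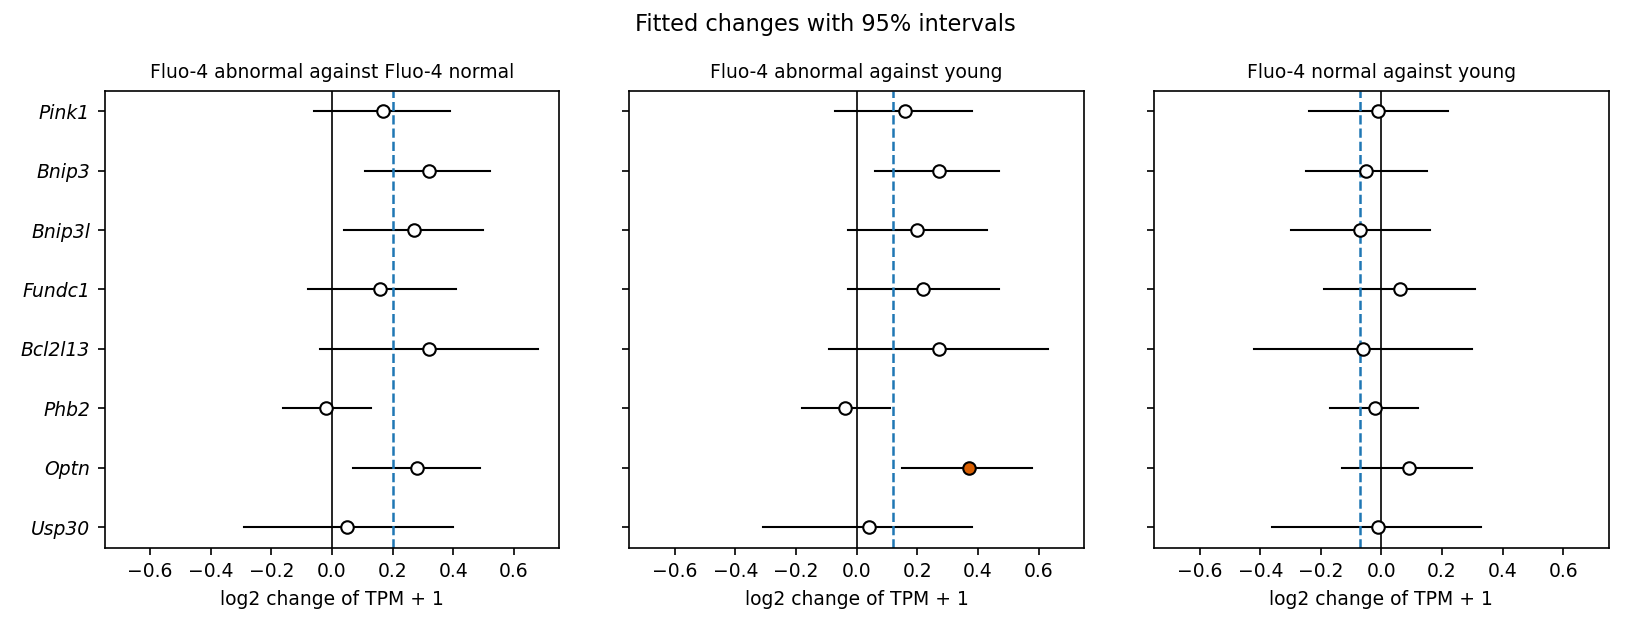
Log2 change of TPM + 1 (x axis) of each gene (y axis) in the 3 comparisons, with 95% intervals from the limma fit. The dashed line is the median of genes with at least 5 TPM (0.20, 0.12 and -0.07), the filled point is the call for Optn against young fibers, and no open point passed the adjusted test.

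Pink1, the kinase that senses depolarised mitochondria, was at 553, 519, 538 and 490 TPM in young samples 1 to 4. In Fluo-4 normal fibers it was at 437, 580, 557 and 522 TPM, and in Fluo-4 abnormal fibers at 501, 685, 624 and 548 TPM. The groups overlapped, and in each of the 4 same-numbered aged pairs the Fluo-4 abnormal sample was the higher. The log2 change of Pink1 between them was 0.17 (SE 0.10, 95% interval -0.06 to 0.39, limma adjusted p = 0.34), and -0.06 with TMM-type factors. Its last exons overlap Ddost, a subunit of the oligosaccharyltransferase of the endoplasmic reticulum, on the other strand, over 1514 bases or 40.4% of the main Pink1 transcript of 3752 bases. The library kit does not mark strand, so reads from the shared stretch cannot be told apart. Ddost rose from 36.5 to 55.1 TPM between the aged groups (log2 change 0.57, SE 0.088, adjusted p = 0.0025), and stood at 6.05 to 8.84% of the Pink1 level in Fluo-4 normal and 7.89 to 11.7% in Fluo-4 abnormal samples. The part of that overlap in the Pink1 values was not tested.

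Bnip3, a receptor of the outer membrane whose gene is a standard target of hypoxia-inducible factors, was at 276, 304, 305 and 281 TPM in young fibers. It was at 237, 288, 303 and 300 TPM in Fluo-4 normal fibers and at 303, 401, 351 and 352 TPM in Fluo-4 abnormal fibers. Only the lowest Fluo-4 abnormal sample fell within the Fluo-4 normal range, and the change was upward in 4 of 4 pairs. Bnip3 had the smallest p of the 8 genes (log2 change 0.32, SE 0.094, 95% interval 0.11 to 0.52, limma adjusted p = 0.051). Blocking on replicate number gave Bnip3 an adjusted p of 0.042, and without Fluo-4 abnormal replicate 1 it was 0.019 and without Fluo-4 normal replicate 3 it was 0.047. With TMM-type factors the change was 0.09 with an adjusted p of 0.55. Against young fibers the log2 change of Bnip3 was 0.27 (adjusted p = 0.10), with 0.044 without Fluo-4 normal replicate 1 and 0.039 without Fluo-4 abnormal replicate 1. Between Fluo-4 normal and young fibers it was -0.05. The pseudogenes Gm16439, Gm6532 and Gm9419, which resemble Bnip3 over parts of its transcript, together reached 1.27 to 2.22% of its level. The non-coding gene Gm45507, on the other strand, overlaps 504 exonic bases of Bnip3, and reads cannot be told apart there. It was listed at 6.678 to 9.478 TPM in young, 3.895 to 6.492 in Fluo-4 normal and 8.154 to 9.565 in Fluo-4 abnormal fibers. The part of that overlap in the Bnip3 values was not tested.

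Bnip3l encodes NIX, the receptor that clears mitochondria from maturing red cells and that also acts in muscle. Its levels were 84.7, 68.6, 67.8 and 77.9 TPM in young, 62.7, 78.0, 75.7 and 68.3 TPM in Fluo-4 normal and 77.1, 103.8, 80.8 and 82.7 TPM in Fluo-4 abnormal fibers. Fluo-4 abnormal replicate 2 stood above the other 11 samples, and the aged groups overlapped at their edges. The log2 change of Bnip3l between the aged groups was 0.27 (SE 0.11, 95% interval 0.04 to 0.5, adjusted p = 0.13), upward in 4 of 4 pairs. With the share of Myh4 among 4 myosin heavy chain genes as a covariate, its change was 0.50 and its adjusted p 0.04. That was the 1 setting of 25 alternatives in which Bnip3l was called. With TMM-type factors its change was 0.04 (limma adjusted p = 0.88). The processed pseudogene Bnip3l-ps at chr12:18266599-18267255 matches 657 bases of Bnip3l at 99.4% identity and was listed at 17.9 to 23.9% of its level. Summing both left the change at 0.29 (adjusted p = 0.11). Red-cell markers were detected for 5 of 7, with a summed level of 33.1 to 121 TPM in young, 119 to 482 in Fluo-4 normal and 44.4 to 236 in Fluo-4 abnormal fibers, while the defining marker Slc4a1 was at 0 in all samples, and the part of red-cell RNA in the Bnip3l values was not tested. Bnip3 and Bnip3l kept their proportion, with 3.95 ± 0.608 TPM of Bnip3 for each TPM of Bnip3l in young, 3.97 ± 0.311 in Fluo-4 normal and 4.10 ± 0.238 in Fluo-4 abnormal fibers.

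Bcl2l13, an outer-membrane member of the BCL2 family with a receptor role, was at 16.6, 20.2, 19.3 and 15.9 TPM in young and 15.2, 20.4, 17.3 and 16.1 TPM in Fluo-4 normal fibers. In Fluo-4 abnormal fibers it was at 18.4, 32.2, 21.8 and 17.2 TPM, and replicate 2 stood far above the other samples. The log2 change of Bcl2l13 between the aged groups was 0.32 (SE 0.17, 95% interval -0.04 to 0.68, adjusted p = 0.25), and was 0.14 to 0.43 when 1 sample was left out. Bid, which shares exonic sequence with Bcl2l13 on the other strand, did not exceed 0.312 TPM.

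Fundc1, the receptor that responds to hypoxia through a change in its phosphorylation, was at 26.9, 23.0, 25.8 and 22.8 TPM in young and 28.4, 24.01, 26.5 and 23.8 TPM in Fluo-4 normal fibers. In Fluo-4 abnormal fibers it was at 25.2, 32.6, 24.6 and 34.1 TPM. Replicates 2 and 4 lay above every sample of the other groups, whereas replicates 1 and 3 lay within them. The log2 change of Fundc1 was 0.16 (SE 0.11, 95% interval -0.08 to 0.41, adjusted p = 0.41) and -0.06 with TMM-type factors, with 2 of 4 pairs upward.

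Phb2, an inner-membrane prohibitin that is exposed to LC3 once the outer membrane ruptures, was at 98.9, 114.5, 108.1 and 103.3 TPM in young fibers. It was at 95.9, 107.9, 107.9 and 106.5 TPM in Fluo-4 normal and at 97.2, 107.2, 107.3 and 101.8 TPM in Fluo-4 abnormal fibers. The 3 groups lay within one another. The log2 change between the aged groups was -0.02 (SE 0.067, 95% interval -0.16 to 0.13, adjusted p = 0.91). With TMM-type factors Phb2 was called lower, at -0.24 (adjusted p = 0.038).

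The other prohibitin, Phb, which forms a ring complex with Phb2, was at 108, 111, 104 and 107 TPM in young and 111, 119, 104 and 95.1 TPM in Fluo-4 normal fibers. In Fluo-4 abnormal fibers Phb was at 85.7, 78.9, 68.3 and 73.6 TPM, below every sample of both other groups. Phb fell by 0.48 on the log2 scale between the aged groups (SE 0.082, limma adjusted p = 0.0041) and by 0.49 against young fibers (adjusted p = 0.0032). It was called lower in 23 of 25 alternatives between the aged groups and in 23 of 23 against young fibers. The ratio of Phb2 to Phb, which no scaling of a sample can change, was 0.988 ± 0.059 in young, 0.982 ± 0.117 in Fluo-4 normal and 1.36 ± 0.178 in Fluo-4 abnormal fibers (SD, n = 4). Its values of 1.13 to 1.57 in Fluo-4 abnormal fibers lay above the 0.867 to 1.12 of Fluo-4 normal fibers (exact permutation of the labels, two-sided p = 0.0286, no smaller value being possible with 4 against 4 samples, and 0.14 adjusted over the 5 ratios tested). The ratio was higher in 4 of 4 same-numbered pairs, and swapping only within pairs gave an exact permutation p of 0.125, the smallest that 4 pairs allow. The other 4 ratios, among them Pink1 to Bnip3 (1.86 ± 0.112 and 1.67 ± 0.0923 in the aged groups, exact p = 0.0571), also did not pass after adjustment.

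**Figure D3:**
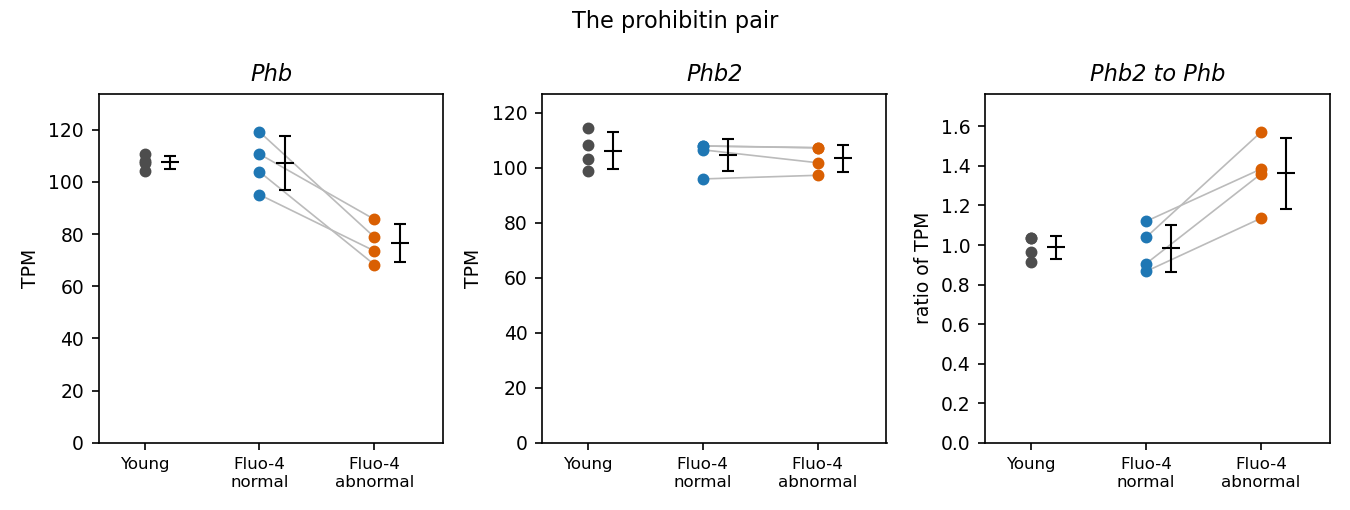
Levels of Phb and Phb2 (y axis, TPM) and their ratio in each sample of the 3 groups (x axis), with grey lines joining aged samples of the same number and bars giving mean ± SD of 4 samples. Phb was lower in 4 of 4 Fluo-4 abnormal samples (68.3 to 85.7 TPM), whereas Phb2 stayed between 95.9 and 114.5 TPM in all 12 samples.

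Optn encodes optineurin, which links ubiquitin on mitochondria to the autophagosome. It was at 43.3, 57.4, 56.5 and 43.9 TPM in young and at 54.8, 51.6, 53.0 and 52.3 TPM in Fluo-4 normal fibers. In Fluo-4 abnormal fibers Optn was at 61.6, 72.6, 61.6 and 62.9 TPM, above every sample of both other groups. Against young fibers the log2 change of Optn was 0.37 (SE 0.098, 95% interval 0.15 to 0.58, limma adjusted p = 0.035), the 1 call among the 8 genes, where 8.50% of all genes tested were called (14.7% of those at 5 TPM) and 6.09% called higher. Groups lay apart with the Fluo-4 abnormal samples higher for 12.2% of all genes in that comparison. The call was lost without young replicate 1 or 4 (0.30 and 0.31, both adjusted p = 0.11), without Fluo-4 abnormal replicate 2 (0.31, 0.10), 3 (0.39, 0.054) or 4 (0.38, 0.068), and with TMM-type factors (0.20, 0.26). Between the aged groups the change was 0.28 (SE 0.098, 95% interval 0.07 to 0.49, adjusted p = 0.09), upward in 4 of 4 pairs, and 0.06 with TMM-type factors. Groups that did not overlap and were higher made up 11.5% of all genes in that comparison and 20.1% of those at 5 TPM, and Optn was the 1 such gene of 8. The young samples of Optn lay in 2 pairs, 43.3 and 43.9 TPM and 56.5 and 57.4 TPM.

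Usp30, the deubiquitinase of the outer membrane that removes ubiquitin from mitochondria, was the lowest of the 8 at 1.19, 0.899, 0.795 and 1.14 TPM in young fibers. It was at 0.537, 0.911, 1.13 and 1.47 TPM in Fluo-4 normal and at 0.688, 1.01, 1.22 and 1.37 TPM in Fluo-4 abnormal fibers. All 3 groups overlapped widely, and the log2 change between the aged groups was 0.05 (SE 0.16, 95% interval -0.29 to 0.4, adjusted p = 0.87) and -0.05 with TMM-type factors. Alkbh2, on the other strand, overlaps 2214 exonic bases of Usp30 and was listed at 0.116 to 1.59 TPM, so reads of the 2 genes cannot be told apart there.

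Against young fibers, 7 of 8 changes in Fluo-4 abnormal fibers were positive (66.7% of all genes), from 0.04 for Usp30 to 0.37 for Optn, with TMM-type factors turning Pink1 to -0.01 and Usp30 to -0.05. Bnip3 and Optn had an unadjusted p under 0.05, against 23.0% of all genes. None of the 8 differed by the factor of 2 from young fibers that the study's gene lists require, the ratios of group means being 0.974 for Phb2 to 1.29 for Optn. Fluo-4 normal fibers were also compared with young fibers. They are a part of the aged fibers chosen by staining, so that comparison does not isolate age. Of the 8 genes 0 were called in the limma fit and 0 had an unadjusted p under 0.05, where 1.15% and 12.9% of all genes did. The log2 change was positive for 2 of 8, against 43.9% of all genes. The log2 changes lay between -0.07 for Bnip3l and 0.09 for Optn, with adjusted p from 0.78 to 1.0. For Pink1 the 95% interval of that change was -0.24 to 0.22, for Bnip3 -0.25 to 0.15 and for Phb2 -0.17 to 0.12. Each group enters 2 of the 3 comparisons, so they are not independent of one another.

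**Figure D4:**
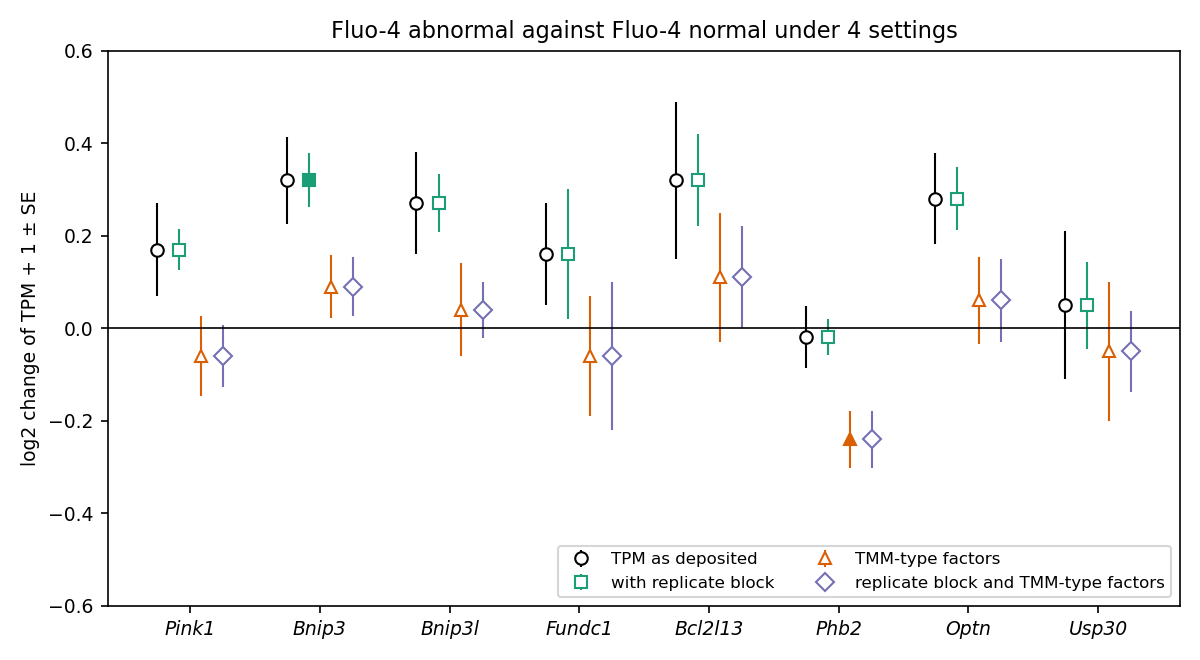
Log2 change of TPM + 1 between Fluo-4 abnormal and Fluo-4 normal fibers (y axis, ± SE) for each gene (x axis) under 4 settings, filled where the adjusted p was under 0.05. The filled points are Bnip3 with the replicate block (0.32) and Phb2 with TMM-type factors (-0.24), and Pink1, Fundc1 and Usp30 lie below 0 with TMM-type factors.

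Within the 12 samples, Fluo-4 abnormal replicate 2 had the highest level of 5 of the 8 genes and Fluo-4 normal replicate 1 the lowest level of 6. The same 2 samples had the extreme TMM-type scaling factors, 1.18 and 0.805. Pink1 and Bnip3 varied together most closely among the 8 genes (Pearson r = 0.84 of log2(TPM + 1) over 12 samples, a description that contains the group differences and the shared scale of each sample). Among 5987 further genes, those most like Pink1 over the 12 samples were Ubxn2a (0.954), Ipo13 (0.949) and Ptp4a1 (0.944), and those most like Bnip3 were Hdlbp (0.981), Vps54 (0.979) and Herc2 (0.971). Bnip3l was most like Gabarapl2 (0.902), a GABARAP-family protein that binds such receptors, then Obsl1 (0.888) and Ramac (0.877). For Bcl2l13 they were Gtf2ird1 (0.95), Celf1 (0.939) and Fbxw11 (0.938), for Optn St3gal6 (0.924), Supt3 (0.921) and Psmg2 (0.909), and for Phb2 Dusp8 (0.907), Ppp1r37 (0.899) and Dnaja4 (0.876). Fundc1 was most like Tor1a (0.827), Rtraf (0.822) and Ost4 (0.815), and Usp30 most like Selenop (0.854), Arrdc3 (0.818) and Prpf4b (0.807).

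Partner genes were described in 7 lists, beside backgrounds of 7.36% of all genes called higher and 1.99% called lower between the aged groups, and of 6.09% and 2.41% in Fluo-4 abnormal against young fibers. Of genes at 5 TPM or more in a group, 17.7% and 14.7% were called in either direction in these 2 comparisons. Of the 18 genes of the Pink1 pathway, Park7 rose and Mfn1 fell between the aged groups and 16 were not called, with a median log2 change of 0.17. Park7, a redox-sensitive protein whose gene, like Pink1, is mutated in early-onset Parkinson disease, was at 669 to 730 TPM in Fluo-4 normal and 846 to 1049 TPM in Fluo-4 abnormal fibers (0.45, adjusted p = 0.0029, and 0.23 with an adjusted p of 0.18 with TMM-type factors). Park7 in young fibers (895 to 999.7 TPM) lay close to Fluo-4 abnormal fibers, and it was lower in Fluo-4 normal than in young fibers (-0.40, adjusted p = 0.02). That call was lost with TMM-type factors (-0.34, adjusted p = 0.076). It was also lost in 5 omissions of 1 sample (young replicate 1, 2 or 3, Fluo-4 normal replicate 2 or 4, with adjusted p 0.054 to 0.081). Mfn1, an outer-membrane fusion protein that is marked with ubiquitin in this pathway, fell by 0.45 (adjusted p = 0.045, and 0.075 with the replicate block) and fell by 0.57 against young fibers (adjusted p = 0.017). Mfn1 was called in 8 of 25 alternatives between the aged groups (-0.67, adjusted p = 0.0022 with TMM-type factors) and in 20 of 23 against young fibers.

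The ubiquitin-binding adaptors, which like Optn hold ubiquitin and the autophagosome together, had 2 called of 6 tested, both higher. Their median was 0.38 and 6 of 6 changes were positive, against 69.6% of all genes and 78.6% of those at 5 TPM. With TMM-type factors 6 of 6 were also positive, with a median of 0.17. Nbr1 went from 15.3, 25.02, 27.9 and 26.6 TPM in Fluo-4 normal to 34.1, 40.4, 38.1 and 43.1 TPM in Fluo-4 abnormal fibers (0.72, adjusted p = 0.013), with no overlap. Sqstm1, which encodes p62, went from 512 ± 102 to 746 ± 93.2 TPM (0.56, adjusted p = 0.02, and 0.33 with an adjusted p of 0.11 with TMM-type factors). Both were also higher than in young fibers (0.75 and 0.52, adjusted p = 0.011 and 0.029), and neither was called between Fluo-4 normal and young fibers. The call of Sqstm1 against young fibers was lost with TMM-type factors (0.35, adjusted p = 0.076). It was also lost without young replicate 1, 3 or 4 or Fluo-4 abnormal replicate 2, 3 or 4 (adjusted p 0.064 to 0.087). Tax1bp1 changed by 0.38 with an adjusted p of 0.086, and of 0.049 with the replicate block.

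The ATG8 family, the autophagosome proteins that mitophagy receptors bind, had 1 of 5 called between the aged groups and 3 of 5 against young fibers, all higher. Map1lc3b was at 238 to 246 TPM in young, 238 to 279 in Fluo-4 normal and 303 to 348 TPM in Fluo-4 abnormal fibers (0.35, adjusted p = 0.0054 between the aged groups, and 0.12 with an adjusted p of 0.41 with TMM-type factors). Against young fibers Map1lc3b rose by 0.44 (adjusted p = 0.0012), Map1lc3a by 0.52 (0.0061) and Gabarapl1 by 0.45 (0.029). With TMM-type factors Map1lc3b kept that call (0.27, adjusted p = 0.038), and Map1lc3a (0.35, 0.077) and Gabarapl1 (0.28, 0.058) lost it. The call of Gabarapl1 was also lost without young replicate 1, 2 or 4 or Fluo-4 abnormal replicate 2, 3 or 4 (adjusted p 0.062 to 0.082). Between the aged groups Map1lc3a changed by 0.30 (adjusted p = 0.07, and 0.043 with the replicate block). With TMM-type factors the family's median between the aged groups was 0.00, and against young fibers 0.27.

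Of 15 tested receptors and regulators outside the 8, Fbxl4 rose, Phb fell and 13 were not called between the aged groups, with the same 2 called against young fibers. Fbxl4, part of a ubiquitin ligase that limits NIX and BNIP3 protein, went from 22.4 ± 2.78 to 30.5 ± 2.33 TPM (0.43, adjusted p = 0.021). That call was lost with TMM-type factors (0.21, adjusted p = 0.13) and without Fluo-4 abnormal replicate 2 or 3 (0.064 and 0.057). Against young fibers Fbxl4 changed by 0.40 (adjusted p = 0.03, and 0.074 with TMM-type factors), with 15 of 23 alternatives called. Its partner in that control, Pptc7, was at 30.7 ± 2.71 and 26.4 ± 3.85 TPM (-0.22, adjusted p = 0.25), and was called lower with TMM-type factors (-0.43, adjusted p = 0.014, and -0.52, 0.0041 against young fibers). The third gene by p, Rheb, changed by 0.18 (adjusted p = 0.09).

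Genes of autophagy initiation had 15 of 15 positive changes between the aged groups, with a median of 0.33 and 2 calls, and 13 of 15 with a median of 0.12 with TMM-type factors. Without those factors 69.6% of all genes and 78.6% of those at 5 TPM had a positive change there. Atg13, a subunit of the ULK kinase complex, went from 14.5 ± 3.62 to 23.0 ± 2.15 TPM (0.66, adjusted p = 0.024, and 0.08 with the replicate block). Atg16l1, which directs lipidation of the ATG8 proteins, went from 8.46 ± 1.67 to 12.4 ± 0.636 TPM (0.52, adjusted p = 0.034, and 0.10 with the replicate block). In Fluo-4 normal against young fibers 13 of 15 changes were negative and 2 positive, with a median of -0.17, where 43.9% of all genes were positive. In Fluo-4 abnormal against young fibers 13 of 15 were positive (66.7% of all genes) with a median of 0.16. With TMM-type factors 7 of 15 were, with a median of -0.01. There Atg13 alone was called (0.58, adjusted p = 0.046, and 0.056 with TMM-type factors).

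Other targets of hypoxia-inducible factors, which share their regulator with Bnip3, moved in both directions, with 2 of 18 higher, 1 lower and a median of 0.12. Slc2a1, a glucose transporter, was at 4.15 ± 1.55 and 8.78 ± 2.89 TPM in the aged groups (0.94, adjusted p = 0.03, and 0.069 with the replicate block). P4ha1, a collagen prolyl hydroxylase subunit, went from 12.9 ± 1.67 to 19.0 ± 2.11 TPM (0.52, adjusted p = 0.031), whereas Egln3, an oxygen-dependent prolyl hydroxylase that limits the same factors, fell from 20.8 ± 6.33 to 9.53 ± 3.82 TPM (-1.08, adjusted p = 0.026). Egln3 in young fibers (6.04 to 10.5 TPM) overlapped Fluo-4 abnormal fibers (5.98 to 13.4 TPM), with a log2 change of 0.02. Fluo-4 normal fibers (12.9 to 28.4 TPM) lay above all young samples (1.1, adjusted p = 0.074, and 1.15, 0.035 with TMM-type factors). None of the 18 was called against young fibers by limma, where 6 had an unadjusted p under 0.05. FoxO targets in muscle had 0 of 11 called in the limma fit and 1 with an unadjusted p under 0.05, Fbxo30 (0.61, adjusted p = 0.16), with a median of 0.16. With the replicate block Trim63 (0.44, adjusted p = 0.041) and Pdk4 (-0.52, adjusted p = 0.04) were called.

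**Figure D5:**
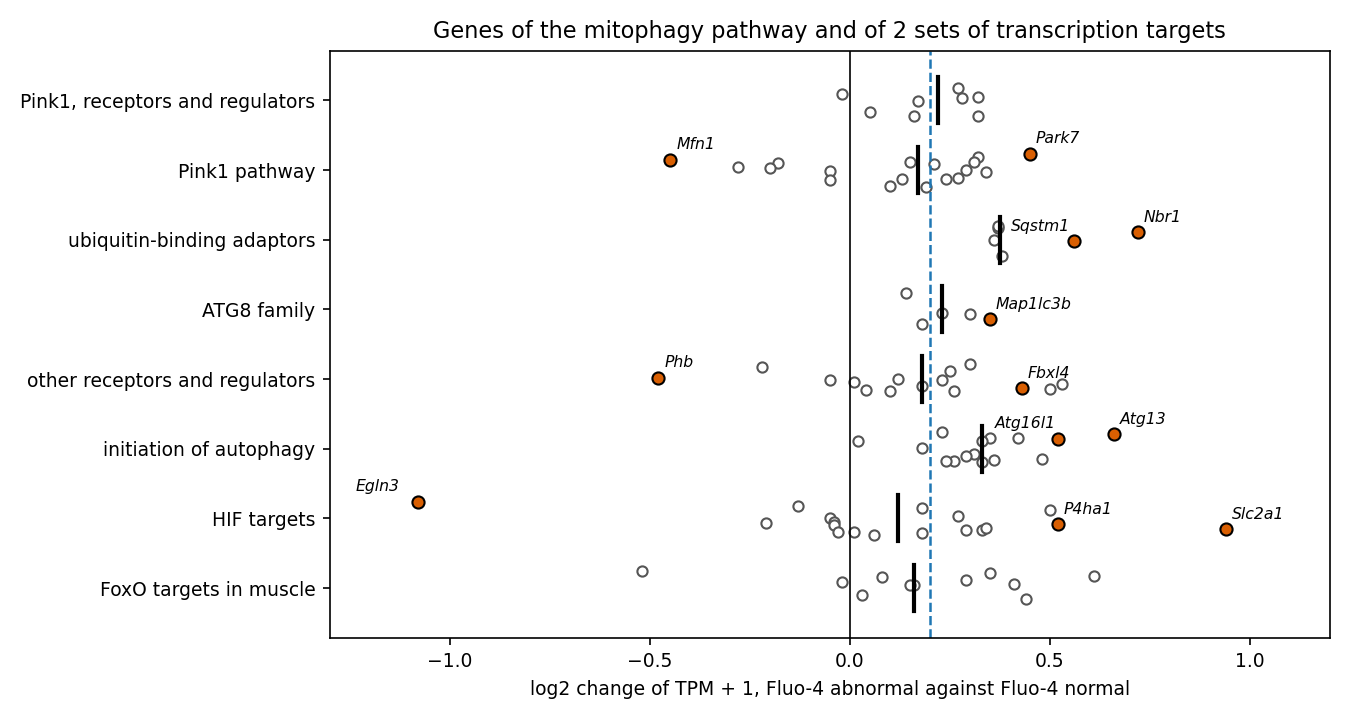
Log2 change of TPM + 1 between Fluo-4 abnormal and Fluo-4 normal fibers (x axis) of each tested gene of the 8 lists (y axis). Filled named points were called, black bars are list medians and the dashed line is the median of genes with at least 5 TPM (0.20). The medians of the adaptors (0.38) and of the initiation genes (0.33) lie to the right of that line, and the median of the 8 genes described here (0.22) lies close to it.

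Across the 88 further genes tested, 12 were called between the aged groups and 9 in Fluo-4 abnormal against young fibers. Of all genes 9.35% and 8.5% were called in these comparisons, and of those at 5 TPM 17.7% and 14.7%. With TMM-type factors 5 of the 12 kept their call (Atg13, Egln3, Mfn1, Nbr1 and Phb) and Pptc7 and Rhot2 (-0.49, adjusted p = 0.023) were added, both lower, with the replicate block 8, and in every omission of 1 sample 4 (Map1lc3b, Nbr1, Park7 and Phb). Of the 9 calls against young fibers, 4 held with TMM-type factors (Map1lc3b, Mfn1, Nbr1 and Phb). In every omission of 1 sample 4 held (Map1lc3a, Map1lc3b, Nbr1 and Phb). The lists are short and were described by counts, so nothing is drawn from them beyond their members.

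The labelled cell type was checked on 11 muscle fiber genes, all detected, which summed to 176504 to 179920 TPM in young, 156469 to 176027 in Fluo-4 normal and 182726 to 209934 in Fluo-4 abnormal fibers, with no overlap. Between the aged groups 8 of their changes were positive and 3 negative. Actn3 (0.77, limma adjusted p = 0.0073) and Myh4 (0.66, 0.02) were called higher. Mb was called lower, from a mean of 1299 TPM in Fluo-4 normal to 296 in Fluo-4 abnormal fibers (-2.2, 0.00087). Markers of adipocytes were at 0 in all samples for 4 of 4, endothelial markers summed to 2.98 to 26.1 TPM, fibroblast markers to 13.5 to 80.8 TPM and smooth muscle markers to 3.13 to 66.7 TPM, with overlap between the aged groups. Satellite cell markers summed to 8.26 to 12.3 TPM in young, 7.02 to 9.86 in Fluo-4 normal and 10.2 to 15.1 in Fluo-4 abnormal fibers. The aged groups did not overlap there, and 0 of 5 markers were called. Schwann markers summed to 2.87 to 11.9 and 4.42 to 8.69 TPM in the aged groups, with overlap. Of 5, Sox10 alone was called, higher in Fluo-4 abnormal than in young fibers (0.28, limma adjusted p = 0.021). Immune markers summed to 0.904 to 1.97 TPM in young, 1.01 to 2.37 in Fluo-4 normal and 2.84 to 5.83 in Fluo-4 abnormal fibers, the last above both other groups. Of 5 immune markers tested between the aged groups, 3 changes were positive and 2 negative (Csf1r -0.16 and C1qa -0.24). Cd3e, a T-cell receptor subunit, was the 1 called, and was higher (1.2, limma adjusted p = 0.0029), at 0.608 to 0.854 and 2.10 to 4.86 TPM. The part of these markers in the values of the 8 genes was not tested. The Myh4 share of the 4 myosin heavy chain genes, a measure of the fastest fiber type, was 96.9 to 98.5% in young, 93.7 to 99.2% in Fluo-4 normal and 98.9 to 99.7% in Fluo-4 abnormal fibers. With that share as a covariate, Bnip3l was the 1 gene of the 8 called between the aged groups and Optn was not called against young fibers (adjusted p = 0.091).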

How the data were processed

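RNA of myofibers was made into SMART-Seq v4 libraries from 10 ng each, and the authors aligned the reads to GRCm39/mm39 with DRAGEN 4.3 and deposited 1 TPM file per sample. Counts, depth and the annotation release are not given in the sources used here. Protein-coding and mitochondrially-encoded genes with a mean of at least 0.02 TPM in at least 1 group (14427) were fitted as log2(TPM + 1) with limma 3.58.1 (R 4.3.3), 3 group means, trended variance, and Benjamini-Hochberg adjustment over all of them. The script was tested on simulated data. TMM-type factors (trims of 30% and 5%) were an own implementation on TPM. Aged samples of the same number deviated together (correlations of 0.3 to 0.44 over 5994 genes at 5 TPM or more, in 4 of 4 pairs), so the block on their numbers is given, although no source says what a number marks. Loci, exons and promoters were read from GRCm39 with GENCODE, and similar copies were found with BLAST 2.17.0. The genes named are the 8 members, up to 3 genes of each list by p between the aged groups, and the 3 most like each member. Other genes named (overlapping genes, pseudogenes, Cd3e, Csf1r, C1qa, Sox10, Actn3, Myh4, Mb, Rhot2, Pptc7, Gabarapl1, Trim63, Pdk4) were chosen after their values were seen. Members and lists were chosen with earlier results of these data known.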

Additional observations from a re-analysis of the deposited data

Results flagged for a closer look

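Each of the 8 genes was checked in each of the 3 groups of 4 samples for a value standing apart from its group, 24 checks in all, of which 2 met Dixon's criterion. Chance alone would meet it in about 1 of 20 groups. Phb2 in Fluo-4 normal replicate 1 was at 95.91 TPM, with 107.9, 107.9 and 106.5 TPM in the others, a gap of 0.881 of the group's range. Optn in Fluo-4 abnormal replicate 2 was at 72.62 TPM, with 61.6, 61.6 and 62.9 TPM in the others, a gap of 0.877 of the range. These are the 2 samples with the lowest and highest TMM-type scaling factors (0.805 and 1.18), whose part in either value was not tested.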

How the results depend on the processing

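Over 565 alternative values of the 24 log2 changes of the 8 genes, 506 kept their direction and their side of the threshold, 10 became called, 12 lost the call and 37 changed sign, and unless stated the cause was not tested. Between the aged groups 0 members were called, and 1 with a filter of 5 TPM (Bnip3), a pseudocount of 0.1 (Bnip3), the replicate block (Bnip3), the Myh4 share as a covariate (Bnip3l) or TMM-type factors (Phb2, lower), and 0 to 1 when 1 sample was left out. Genes called there were 1349 (1062 higher, 287 lower), and 840 (309 higher, 531 lower) with TMM-type factors, 822 with the Myh4 share, 850 with no filter, 566 with only the 2 groups compared, 470 with the replicate block and TMM-type factors and 0 with both the replicate block and the Myh4 covariate in limma (2467 at an unadjusted p under 0.05). The last 2 settings and the sum of Bnip3l with Bnip3l-ps were added after seeing the data. Leaving out 1 sample gave 665 (without Fluo-4 abnormal replicate 2) to 1456.

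Against young fibers 1 member was called in Fluo-4 abnormal fibers, and 0 with all listed genes, the Myh4 share, no filter, only the 2 groups compared, the replicate block, scaling without mitochondrially-encoded genes or TMM-type factors, 2 with sample quality weights, and 0 to 2 when 1 sample was left out. Genes called were 1226 (879 higher, 347 lower), and 1129 (450 higher, 679 lower) with TMM-type factors, 750 with no filter, 684 with the replicate block and 604 (without young replicate 4) to 1676 when 1 sample was left out, with 742 and 788 without Fluo-4 abnormal replicates 2 and 4 and 715 without young replicate 1. Between Fluo-4 normal and young fibers 0 members were called in every alternative. Genes called were 166, and 266 with a filter of 5 TPM, 71 with no filter, 69 with only the 2 groups compared, 0 with the replicate block in limma (1983 at an unadjusted p under 0.05), 358 with sample quality weights and 55 (without young replicate 2) to 207 when 1 sample was left out, with 59 without Fluo-4 normal replicate 4 or young replicate 3, 72 without young replicate 1, and 91 and 103 without Fluo-4 normal replicates 2 and 3. Young samples share only a number with aged ones (correlations of 0.0049 to 0.18 with Fluo-4 abnormal and -0.081 to 0.23 with Fluo-4 normal fibers). Samples of different numbers gave -0.18 to 0.22 and -0.16 to 0.25. The block therefore cannot decide whether a call against young fibers holds. The replicate block changed no other call of the 8 genes than those of Bnip3 and of Optn against young fibers (adjusted p = 0.072).

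Signs changed as follows. Between the aged groups, Pink1 went to -0.06, Fundc1 to -0.06 and Usp30 to -0.05 with TMM-type factors, with or without the replicate block. Fundc1 went to -0.05 with the replicate block plus the Myh4 covariate, Phb2 to 0.04 with the Myh4 share and Usp30 to -0.03 with sample quality weights. Leaving out 1 sample gave -0.06 to 0.01 for Phb2 and -0.07 to 0.16 for Usp30. Against young fibers, Fluo-4 abnormal values went to -0.01 for Pink1 and -0.05 for Usp30 with TMM-type factors, and leaving out 1 sample gave -0.03 to 0.13 for Usp30. Between Fluo-4 normal and young fibers, TMM-type factors gave 0.04 for Pink1, 0.001 for Bnip3, 0.03 for Phb2 and 0.002 for Usp30, scaling without mitochondrially-encoded genes 0.02, 0.01 and 0.0005 for Pink1, Phb2 and Usp30, and sample quality weights 0.01, 0.01 and 0.07 for the same genes. Leaving out 1 sample gave -0.06 to 0.07 for Pink1, -0.09 to 0.03 for Bnip3, -0.06 to 0.02 for Phb2 and -0.12 to 0.11 for Usp30. With no counts in the files used, what depth limits is unknown.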
